A study of Mus musculus with 24 samples.

Results

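The comparison described here is a difference of differences: how far the liver transcript response to a choline- and folate-deficient diet in WSB/EiJ mice departed from the response to the same diet in A/J mice. It was computed as the deficient-minus-control effect in WSB/EiJ minus the deficient-minus-control effect in A/J, and it used 16 of the 24 arrays of the study, 4 in each of 4 groups. The study profiled livers of male mice of 3 inbred strains; the remaining strain, C3H/HeJ, entered only an alternative fit. Mice were put on the diets at 8 weeks of age, stayed on them for 12 weeks and were 20 weeks old at the end. Both diets were amino-acid defined and iron supplemented, so the control groups carried the iron as well. The deficient diet, labelled CFD, held 0.17% methionine with no choline and no folic acid. Folic acid was at 2 mg/kg in the control diet, which also held choline bitartrate at 0.3% and methionine at 0.4%. Each array measured RNA from snap-frozen liver, labelled with a single dye. The labels do not say that the 4 arrays of a group came from 4 separate animals, so the p-values cover only the spread among these arrays, which may be technical.

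Choline, folate and methionine feed the pathway that supplies methyl groups, and choline is also the head group of phosphatidylcholine, which the liver needs to export triglyceride in very-low-density lipoprotein. Rodents kept without choline accumulate hepatic fat and, depending on strain, go on to cell death, inflammation, fibrosis and regenerative growth. Hepatocytes make up most of the tissue, so a bulk liver profile mixes their metabolic genes with genes of macrophages, stellate cells, bile duct cells and lymphocytes. In such bulk samples, fewer cells of a type and less RNA per cell cannot be told apart.

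A level below is the log2 processed signal of a probe minus the 75th percentile of its array, so a level of 0 is the brightness of the probe at that percentile. An effect is the mean level on the deficient diet minus the mean level on the control diet, on the log2 scale. A difference is the WSB/EiJ effect minus the A/J effect, given with its standard error (SE) where one follows it. A gene was called at a Benjamini-Hochberg adjusted p under 0.05 in limma, a linear model fitted over all 15391 genes tested. All adjusted p-values below are of this kind. Errors of group means are standard deviations (SD) over 4 arrays.

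The share of spots well above background ran from 44.4% to 55.5% over the arrays. On the leading principal component, which held 51.1% of the variance, the WSB/EiJ deficient arrays lay between 87.0 and 121 and the WSB/EiJ control arrays between -57.0 and -50.3. The A/J arrays did not separate by diet on it: control replicate 4 lay at -23.2 and deficient replicate 4 at -38.7, past each other. They did on component 2, which held 31.4% of the variance, with controls at 35.2 to 40.2 and deficient arrays at 50.4 to 62.8. On component 3 the A/J controls lay at 4.63 to 58.7 and the A/J deficient arrays at -19.7 to -17.8. A/J control replicate 4 also stood apart on component 3, at 58.7 against -19.7 to 12.6 for the other 15 arrays. In at least 1 group, 3 of 4 arrays were above background for Prc1, Cpe, Trem2, Akr1c18, Spink1, Ubd, Ccna2, Tnfrsf10b and Mbd4. Results that replicate 4 of the A/J controls moves by over 1.5 times, or whose call it ends, are given without it as well. The 10 markers used to check that the tissue was liver, among them Alb and Hnf4a, were well above background on all 16 arrays. Of these, 8 were called lower in the difference and none higher, with a median of -0.73; the median was 0.02 with quantile normalization, where 2 were called lower.

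The scaling of the arrays moved the centre of the whole comparison. The median difference over all 15391 genes was -0.24 with the 75th percentile, -0.14 with median centring, -0.01 with quantile normalization and 0.38 with spike-in scaling. Directions of small differences therefore depend on the scaling, and lists are also described relative to the median of all genes. Of the 41 lists with at least 5 members tested, 25 kept the sign of their median under every scaling tried. Of the 155 calls among named genes, 32 were lost under at least 1 of 5 other scalings or background corrections, 28 of them with spike-in scaling. Those described below are Alb, Apob, Bhmt, Camp, Cd3g, Cd4, Cpt1a, Dbp, Ftl1, Gnmt, Marco, Mat1a, Mttp, Nkg7, Pemt, Pparg, Sdha, Shmt1, Slc46a1, Stab1 and Ubd. In turn, Ccl2, Cdkn1a, Dnmt3b, Fasn and Wt1, uncalled here, were called under at least 1. Of 55 named genes with further probes tested, 8 called ones had a probe that was not called: Bhmt, Cpt1a, Cyp2c38, Etnk2, Mlxipl, Nkg7, Pemt and Stab2.

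The diet response differed between the strains in 8284 genes, 53.8% of those tested. Of these, 2779 genes (18.1% of those tested) had the higher effect in WSB/EiJ and 5505 (35.8%) the lower. Counts of list members below are to be read against these shares. The split turned with the scaling: 51.2% of the calls were higher with quantile normalization, 62.7% with the percentile taken over probes detected throughout and 85.3% with spike-in scaling, against 25.8% among genes above background on all arrays. The diet effect itself was called for 2416 genes in A/J (15.7%; 1220 higher, 7.93%, and 1196 lower, 7.77%) and for 11458 in WSB/EiJ (74.4%; 3881 higher, 25.2%, and 7577 lower, 49.2%). These splits turned with the scaling too: spike-in scaling called 5452 higher and 246 lower in A/J, 5698 in all, and 10656 higher and 1232 lower in WSB/EiJ. The A/J count was 3751 without replicate 4 of both A/J groups. It fell to 1364 without A/J deficient replicate 1, to 1424 without replicate 3 of that group and to 1541 without A/J control replicate 3. The median absolute effect over all genes was 0.21 in A/J and 0.65 in WSB/EiJ.

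**Figure D1:**
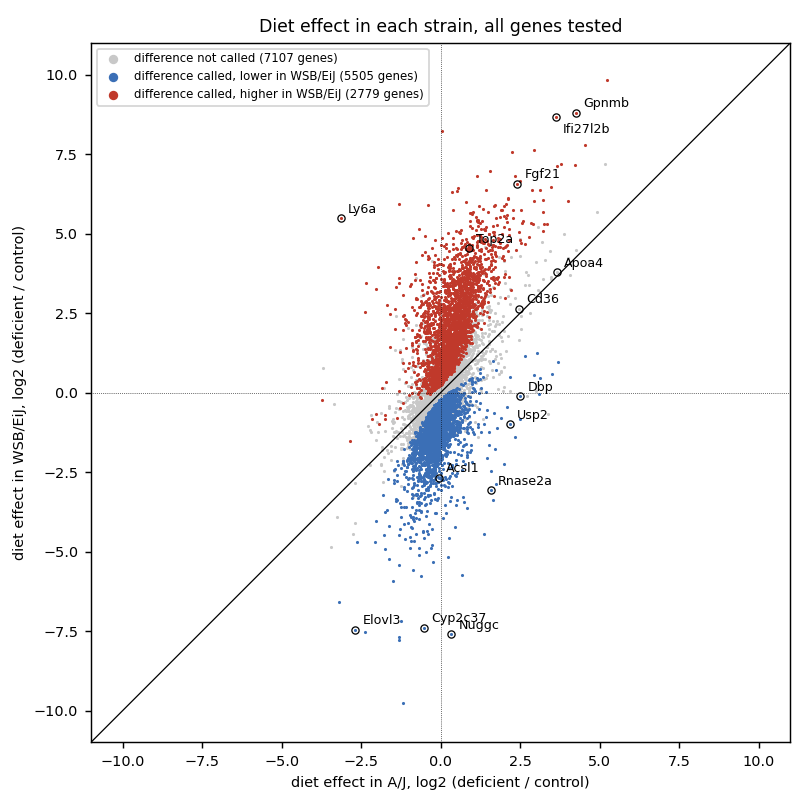
Each point is 1 of the 15391 genes, with its diet effect in A/J on the horizontal axis and in WSB/EiJ on the vertical axis, both in log2 units; the line marks equal effects. The 2779 genes called higher in the difference (red) and the 5505 called lower (blue) spread along the vertical axis, where the effects are larger, and Ly6a lies alone at the upper left with -3.14 in A/J and 5.48 in WSB/EiJ. Which of the 2 colours holds more genes changes with the scaling of the arrays.

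Most of the called differences came with a diet effect called in WSB/EiJ alone. This was so for 6502 genes, 78.5% of the called differences, of which 2011 had the higher effect in WSB/EiJ and 4491 the lower. In another 1350 genes (16.3%) both strains were called the same way, and the effect was larger in WSB/EiJ in 1326 of these and larger in A/J in 24. The effect was called in A/J alone for 131 genes and in opposite directions for 133, and in neither strain for 168. The gap between the strains was larger on the deficient diet for 5090 of the called genes (61.4%). It was larger on the control diet for 3194 (38.6%), whose probe signals thus already set the strains apart on that diet. Whether each probe matches the sequence of both strains was not tested, which limits comparisons of levels between strains here and below. The size was at least 1 log2 unit for 3474 genes and at least 2 for 1366, of which 1022 were higher.

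The gene with the largest positive difference that was above background throughout was Ly6a (probe at chr15:74825553-74825612, mm9), which encodes the surface antigen Sca-1. Its levels were 3.08, 5.41, 3.28 and 3.66 in the A/J controls and 1.76, 1.01, 0.54 and -0.44 on the deficient diet. In WSB/EiJ they were -2.24, -2.67, -2.0 and -3.10 in the controls and 3.34, 2.93, 2.91 and 2.72 on the deficient diet. No deficient array overlapped the controls of its strain, and the direction was opposite: Ly6a fell 8.82-fold in A/J and rose 44.6-fold in WSB/EiJ, a difference of 8.62 ± 0.70 (SE; adjusted p = 1.6e-06). Its neighbour in the same gene family, Ly6c1 (chr15:74875495-74875554, mm9), fell 2.29-fold in A/J and rose 8.46-fold in WSB/EiJ (adjusted p = 2.1e-05 for the difference). Its controls stood at 4.60, 6.72, 4.84 and 5.08 in A/J and at 2.16, 1.39, 1.60 and 1.34 in WSB/EiJ. On the deficient diet A/J lay at 3.97 to 4.33 and WSB/EiJ just above it, at 4.49 to 5.1, without overlap. Another Ly6c1 probe gave an A/J effect of 0.28 and a difference of 2.39, so the fall in A/J rests on the brightest probe.

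Another member of the family, Ly6d (chr15:74592551-74592610, mm9), behaved otherwise: it rose in both strains, by 5.24 in A/J and 9.84 in WSB/EiJ. Its A/J control levels were -2.22, -2.58, -2.09 and 2.88, the last from the array that stood apart. The A/J deficient arrays read 4.86, 4.25, 5.41 and 2.42, so the groups overlapped through replicate 4 of each. WSB/EiJ went from between -3.42 and -2.25 to between 6.65 and 7.46, with no overlap. The difference was 4.60 ± 1.38 (adjusted p = 0.012) and 3.31 without A/J control replicate 4 (adjusted p = 0.00246).

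The other genes among the 12 largest positive differences fell into several kinds. Ifi27l2b, Ifi44, Oas1a and Oas1f are interferon-inducible. Ifi27l2b, a small membrane protein gene, rose 12.3-fold in A/J and 406-fold in WSB/EiJ. Csn3, which encodes the milk protein kappa-casein, rose 21.5-fold in WSB/EiJ and was not called in A/J (effect -0.50). Its WSB/EiJ levels went from -2.64, -2.97, -3.09 and -3.03 to 2.33, 1.35, 1.02 and 1.26, while all 8 A/J arrays lay between -3.99 and -2.38. Sftpd, the lung surfactant collectin, rose 24.3-fold in WSB/EiJ against an uncalled A/J effect of 0.11. Cpe, a peptide-processing carboxypeptidase, and Fxyd6, a regulator of the sodium pump, differed by 4.52 and 4.32; without A/J control replicate 4 the values were 3.48 and 3.42. Prc1, which organises the mitotic spindle midzone, rose 38.0-fold in WSB/EiJ, with an uncalled A/J effect of 0.93.

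**Figure D2:**
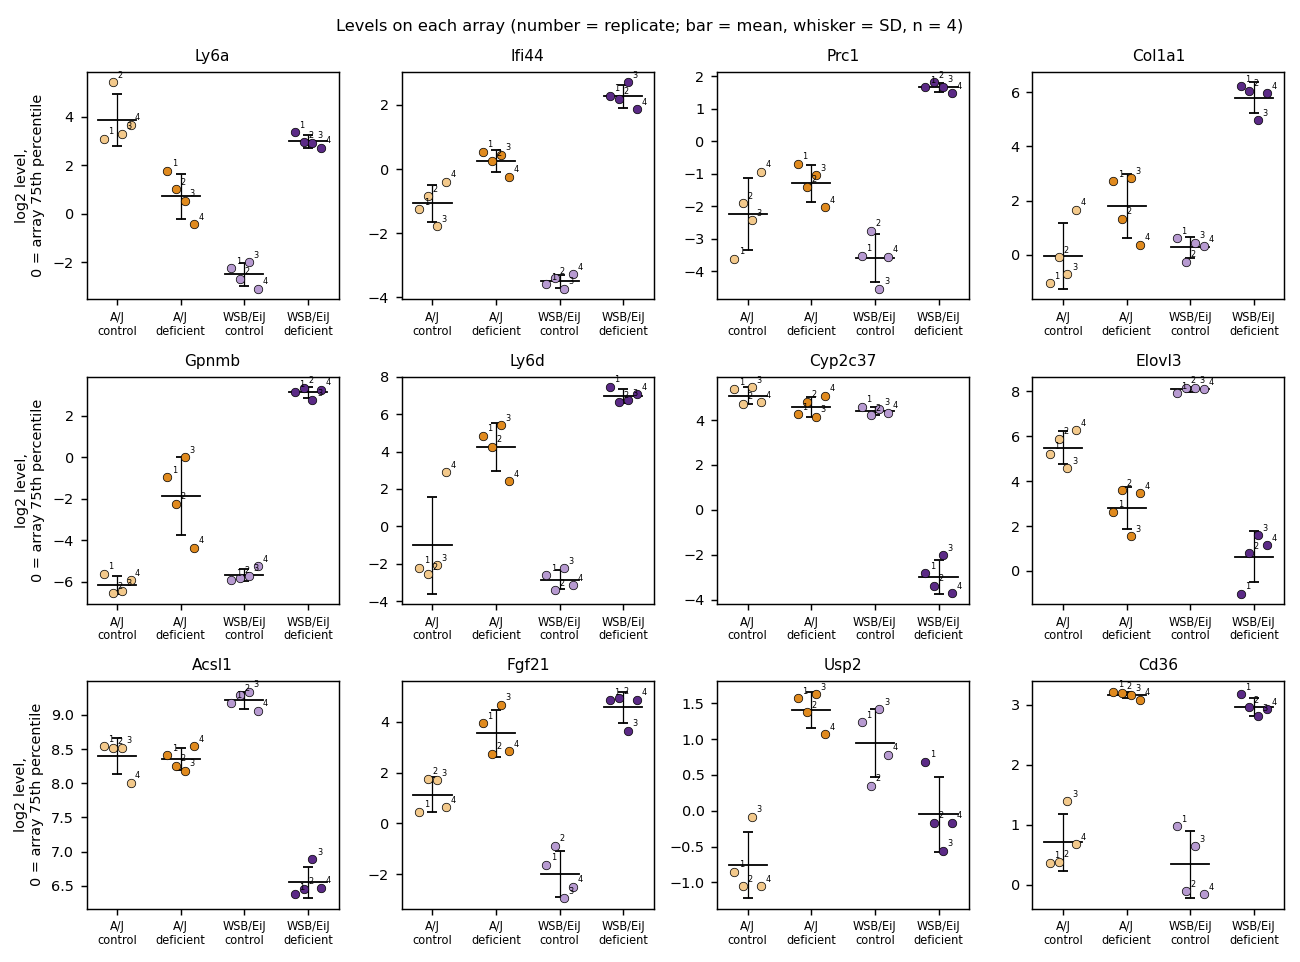
Levels of 12 genes on each of the 16 arrays (log2 processed signal relative to the 75th percentile of the array), by strain and diet; points carry replicate numbers, bars are means and whiskers SD over 4 arrays. Ly6a runs in opposite directions in the strains, Acsl1 separates by diet in WSB/EiJ (from 9.06 to 9.34 down to 6.38 to 6.89), and Cd36 moves by 2.46 in A/J and 2.63 in WSB/EiJ.

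Interferon-stimulated genes, which restrict viruses and are switched on by interferons through STAT and IRF factors, rose mainly in WSB/EiJ. Of 23 tested, 17 were called higher in the difference and none lower, against 18.1% and 35.8% of all genes. Their median effect was 0.21 in A/J and 2.68 in WSB/EiJ, and their median difference was 2.47, or 2.70 relative to the median of all genes. The mean level over the list was 1.04 to 2.20 in the A/J controls and 1.47 to 2.63 in the A/J deficient arrays, which overlap. It was 0.37 to 0.68 in the WSB/EiJ controls and 2.77 to 3.09 in the WSB/EiJ deficient arrays, above every A/J array. The count stayed between 15 and 18 over the scalings and was 14 without replicate 4 of both A/J groups.

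The promoters of 3 genes of this list are shown because they hold copies of the interferon-stimulated response element, the site that interferon-activated factors bind. The sequences are from RefSeq (GRCm38.p6), 5′ to 3′ on the strand of the gene, and run over the 250 bases before the annotated start. Capitals mark matches to GAAA, then any 2 bases, then GAAA again, on either strand, with overlapping matches run together. They lie at chr4:156200819-156201068 (minus strand) for Isg15, chr5:120907526-120907775 (minus strand) for Oas1a and chr19:34640639-34640888 (plus strand) for Ifit1.
Isg15: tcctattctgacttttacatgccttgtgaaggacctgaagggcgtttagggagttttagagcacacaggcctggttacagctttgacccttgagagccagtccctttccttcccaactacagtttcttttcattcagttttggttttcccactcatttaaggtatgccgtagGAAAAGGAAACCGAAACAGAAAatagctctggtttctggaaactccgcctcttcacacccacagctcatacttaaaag
Oas1a: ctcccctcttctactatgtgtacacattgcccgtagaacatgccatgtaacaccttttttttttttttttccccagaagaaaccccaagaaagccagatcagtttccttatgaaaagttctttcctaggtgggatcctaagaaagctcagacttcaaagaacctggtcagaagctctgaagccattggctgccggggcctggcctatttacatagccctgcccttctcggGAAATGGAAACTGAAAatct
Ifit1: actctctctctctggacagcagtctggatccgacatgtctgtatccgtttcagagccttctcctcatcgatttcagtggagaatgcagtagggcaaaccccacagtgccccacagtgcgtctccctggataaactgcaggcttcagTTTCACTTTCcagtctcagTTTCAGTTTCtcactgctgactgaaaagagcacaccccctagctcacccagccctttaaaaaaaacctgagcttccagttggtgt
The window of Isg15 holds 3 matches, and those of Oas1a and Ifit1 hold 2 each. Of the 18 tested members with a promoter in the RefSeq table, 10 held at least 1 match, against 3.46% of 27025 genes. Among the 13 of them called higher, 7 held one.

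Isg15, a ubiquitin-like protein, rose by 2.76 in WSB/EiJ against an uncalled -0.05 in A/J, a difference of 2.81 ± 0.37. Ifit1, which binds viral RNA, rose by 2.66 in WSB/EiJ against an uncalled 0.06. Oas1a, a sensor of double-stranded RNA, was called in both strains, 2.23-fold up in A/J and 42.3-fold up in WSB/EiJ. Its levels were 1.98, 2.61, 1.37 and 2.35 in the A/J controls and 3.59, 3.26, 3.52 and 2.58 in the A/J deficient arrays, which overlap. In WSB/EiJ they went from 1.57, 1.20, 1.30 and 1.49 to 6.81, 6.72, 7.06 and 6.57. Ifi44 rose 2.5-fold in A/J and 54.3-fold in WSB/EiJ, and Oas2 rose 1.79-fold and 14.8-fold. Ubd, the ubiquitin-like modifier FAT10 that interferon-gamma induces, rose in both, 13.7-fold and 145-fold, with a difference of 3.41 ± 1.05.

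Macrophage and monocyte markers rose in both strains, and more in WSB/EiJ. All 23 were called up by the diet in WSB/EiJ and 14 in A/J; 21 were called higher in the difference and none lower. The median effect was 0.90 in A/J and 3.23 in WSB/EiJ. The strains changed places: the median gap was -1.85 on the control diet, with WSB/EiJ below A/J, and 0.71 on the deficient diet. The mean level over the list ran from -0.83 to -0.58 in the WSB/EiJ controls, below the A/J controls at 0.55 to 1.27. It ran from 1.54 to 2.40 in the A/J deficient arrays and from 2.62 to 2.94 in the WSB/EiJ deficient arrays. None of the 4 ranges overlaps another.

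Cd68, a lysosomal glycoprotein of macrophages, stood at 1.75, 2.19, 1.34 and 2.11 in the A/J controls and 3.32, 2.74, 3.38 and 2.70 on the deficient diet. Its WSB/EiJ levels went from 0.06, -0.06, -0.04 and 0.03 to 4.38, 4.25, 3.99 and 4.15. Both strains separated by diet, and Cd68 rose 2.28-fold in A/J and 18.3-fold in WSB/EiJ (adjusted p = 3.1e-06 for the difference). Cybb, the catalytic subunit of the phagocyte NADPH oxidase, was above background on none of the WSB/EiJ control arrays and rose there at least 19.5-fold, against 2.28-fold in A/J. Ly86, a partner of a Toll-like receptor homologue, rose 1.91-fold and 14.8-fold.

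Genes of lipid-associated macrophages, the cells that gather around fat-laden or dying hepatocytes, rose further. Of 14 tested, 10 were called higher in the difference and none lower, with median effects of 1.53 in A/J and 4.54 in WSB/EiJ. Gpnmb, a lysosomal glycoprotein of such cells, was above background on no control array of either strain. It rose at least 5.2-fold in A/J and at least 164-fold in WSB/EiJ. Its deficient levels were -0.98, -2.24, 0.00 and -4.36 in A/J, spread over more than 4 log2 units, and 3.16, 3.35, 2.75 and 3.25 in WSB/EiJ. Trem2, the lipid receptor that defines these macrophages, rose 23.3-fold in A/J and 222-fold in WSB/EiJ, a difference of 3.25 ± 0.65 (adjusted p = 9.8e-04). Lgals3, a galactose-binding lectin, rose 3.30-fold and 59.7-fold.

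Atp6v0d2, a proton pump subunit of macrophages and osteoclasts, differed in another way. It was at -0.11, -0.49, -0.58 and -0.81 in the A/J controls and at -0.41, -0.24, 0.28 and -0.18 on the deficient diet, with no call in A/J (effect 0.36). In WSB/EiJ no control array was above background, and the deficient arrays read 1.40, 1.38, 0.84 and 1.24, at least 42.3-fold higher. The tetraspanin gene Cd9 likewise rose 6.52-fold in WSB/EiJ with an uncalled A/J effect of 0.14.

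Of the genes for MHC class II antigen presentation, 7 of 8 were called higher in the difference and none lower, with a median of 2.77. Ctss, the protease that trims the invariant chain, rose 1.96-fold in A/J and 22.6-fold in WSB/EiJ. The invariant chain gene Cd74 rose 12.2-fold in WSB/EiJ, with an uncalled A/J effect of 0.91, and H2-DMa, a peptide exchange factor, rose 13.5-fold with an uncalled 0.92. The exception, H2-Aa, was above background on no WSB/EiJ array, and its difference was not called (adjusted p = 0.069); leaving out A/J control replicate 2, A/J control replicate 4 or A/J deficient replicate 4 each gave 1 member called lower.

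Among chemokines and inflammatory mediators, 10 of 15 were called higher and none lower, with median effects of 1.5 in A/J and 3.56 in WSB/EiJ. All 15 were above background on all 4 WSB/EiJ deficient arrays, against 9, 13 and 10 in A/J control, A/J deficient and WSB/EiJ control. Members tested through the WSB/EiJ deficient arrays alone had little room to be called lower. Ccl3 was above background on no control array and rose at least 2.40-fold in A/J and at least 8.34-fold in WSB/EiJ. Ccl7 rose at least 22.7-fold in WSB/EiJ; in A/J 3 of 4 deficient arrays and no control array measured it. Ccl2, the main monocyte attractant, rose 8.37-fold in A/J and 37.2-fold in WSB/EiJ, and its difference of 2.15 was not called (adjusted p = 0.084). The 95% interval of that difference ran from -0.00 to 4.31. Tlr4, the endotoxin receptor, rose 5.39-fold in WSB/EiJ and had an uncalled A/J effect of 0.66.

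Markers of resident Kupffer cells, the liver's own macrophages, differed little. Of 9 tested, 2 were called higher, Cd5l (1.10) and Marco (2.23), against 18.1% of all genes, and the median difference was 0.53. Neither call was stable. Leaving out 1 of 9 arrays ended that of Cd5l, which then lay between 0.89 and 1.09 (adjusted p from 0.0522 to 0.0712): A/J control 2 and 4, A/J deficient 2, 3 and 4, and WSB/EiJ control 2 and 3 and deficient 2 and 3. Leaving out any array but A/J control 3, A/J deficient 4, WSB/EiJ control 1 and WSB/EiJ deficient 1 and 3 ended that of Marco, which then lay between 1.73 and 2.23 (adjusted p from 0.0535 to 0.0722). The median gap between the strains stayed near its control value of -1.56 on the deficient diet, at -1.35, with WSB/EiJ below A/J on both. The list's mean level was 2.76 to 3.59 in the A/J controls, 3.23 to 3.53 on the deficient diet, 1.12 to 1.39 in the WSB/EiJ controls and 1.23 to 2.22 on the deficient diet.

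Extracellular matrix and stellate cell genes, which mark scar formation, rose mainly in WSB/EiJ. Of 32 tested, 25 were called higher in the difference and 2 lower, Col5a2 (-2.07; above background on 1 A/J control and 2 A/J deficient arrays) and Fn1 (-0.29), with a median of 2.11; the count of lower members was 1 without some single arrays. The diet effect was called up for 28 in WSB/EiJ and 12 in A/J. All 32 were above background on all 4 WSB/EiJ deficient arrays, against 22, 28 and 26 in A/J control, A/J deficient and WSB/EiJ control. Members tested through the WSB/EiJ deficient arrays alone had little room to be called lower. Mean levels were -0.78 to 0.14 in the A/J controls and -0.22 to 0.83 on the deficient diet, which overlap, and -0.38 to -0.06 and 2.06 to 2.73 in WSB/EiJ, which do not. Macrophage markers rose on the same arrays, and this list shares members with that of lipid-associated macrophage genes. The part of macrophages in the matrix result was not tested.

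Col1a1, the main chain of fibrillar collagen, had A/J control levels of -1.05, -0.10, -0.71 and 1.66 and A/J deficient levels of 2.72, 1.34, 2.82 and 0.37. The WSB/EiJ levels went from 0.61, -0.26, 0.45 and 0.31 to 6.22, 6.06, 4.97 and 5.97. The A/J groups overlapped through replicate 4 of each and the WSB/EiJ groups lay over 4 log2 units apart; Col1a1 rose 3.64-fold and 46.2-fold, a difference of 3.67 ± 0.84 (adjusted p = 0.0025). Loxl2, a collagen cross-linking enzyme, had the lowest adjusted p of the list (8.6e-07). It lay between -1.06 and -0.74 on all 8 A/J arrays and rose 4.43-fold in WSB/EiJ. Other Loxl2 probes gave A/J effects of 1.20 and 0.66, and called differences of 1.94 and 2.02. Timp1, an inhibitor of matrix proteases, was above background on 2 A/J and 3 WSB/EiJ control arrays, rose in both strains, and had a difference of 2.99. Acta2, the actin of activated stellate cells, differed by 2.37, and by 1.73 without A/J control replicate 4 (adjusted p = 0.00311).

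Biliary and progenitor markers, which are high in duct cells and in the ductular reaction of injured liver, responded in WSB/EiJ. Of 12 tested, 9 were called higher in the difference and none lower. All 12 were above background on all 4 WSB/EiJ deficient arrays, against 8, 10 and 10 in A/J control, A/J deficient and WSB/EiJ control. Members tested through the WSB/EiJ deficient arrays alone had little room to be called lower. The median effect was -0.07 in A/J and 2.43 in WSB/EiJ. The mean level was -2.20 to -1.45 in the A/J controls, -2.19 to -1.80 in the A/J deficient arrays and -1.94 to -1.66 in the WSB/EiJ controls, and it rose to between -0.57 and 0.80 only in the WSB/EiJ deficient arrays. Cd24a, a surface sialoglycoprotein of progenitor cells, read 1.21, 1.12, -0.31 and 1.30 on those arrays, against -2.97 to -2.68 in the WSB/EiJ controls. Prom1, the stem cell antigen CD133, rose 7.64-fold there and had an uncalled A/J effect of 0.16. Anxa3 rose in both strains, 1.70-fold and 12.0-fold.

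Genes of the fetal liver and of liver tumours were also called higher. Of 17 tested, 13 were called higher and none lower, with median effects of 0.41 in A/J and 3.39 in WSB/EiJ. All 17 were above background on all 4 WSB/EiJ deficient arrays, against 12, 14 and 14 in A/J control, A/J deficient and WSB/EiJ control. Members tested through the WSB/EiJ deficient arrays alone had little room to be called lower. Afp, the fetal counterpart of albumin, lay between 0.10 and 0.91 on the 8 A/J arrays. It went from 0.02, 0.37, 0.15 and 0.21 to 5.28, 3.66, 4.39 and 3.73 in WSB/EiJ, a 16.9-fold rise (adjusted p = 1.1e-05 for the difference). H19, an imprinted RNA of fetal tissue, had the largest difference of the list, 8.17 ± 1.99, and rose 297-fold in WSB/EiJ. Its A/J control levels were -4.66, -3.66, -4.67 and 3.98 (2 of them above background) and its A/J deficient levels -2.25, -1.53, -2.08 and -2.99; without A/J control replicate 4 the difference was 6.10 (adjusted p = 9.0e-06). Spink1, a trypsin inhibitor raised in liver tumours, rose 4.31-fold in A/J and 69.6-fold in WSB/EiJ. Akr1c18, a steroid-converting reductase, rose 16.3-fold in WSB/EiJ with an uncalled A/J effect of 0.02.

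Of the calcium-binding S100 proteins and annexins, 11 of 17 were called higher and 2 lower, with a median difference of 2.10. Anxa5, which binds exposed phosphatidylserine, had among the lowest adjusted p of all named genes (4.9e-08). It stood at 3.99, 4.03, 4.00 and 3.99 in the A/J controls and 5.36, 5.01, 5.49 and 4.71 on the deficient diet, and at 1.89, 1.68, 1.94 and 1.94 against 6.68, 6.54, 6.63 and 6.59 in WSB/EiJ. It rose 2.20-fold in A/J and 26.8-fold in WSB/EiJ, with no overlap in either strain. S100a1 went the other way, with a difference of -0.96.

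Cell cycle and mitosis genes were called higher in the difference for 25 of 26 tested and lower for none. Every member was above background on all 4 WSB/EiJ deficient arrays. In the A/J control, A/J deficient and WSB/EiJ control groups 17, 22 and 16 members were so on all 4 arrays. A member tested through the WSB/EiJ deficient arrays alone had little room to be called lower. All 26 were called up by the diet in WSB/EiJ and 12 in A/J, with median effects of 3.82 and 0.86. Mean levels were -1.97 to -1.01 in the A/J controls and -1.16 to -0.44 on the deficient diet, which overlap. They were -2.47 to -1.97 in the WSB/EiJ controls, where 6 members were above background on no array, and 1.15 to 1.34 on the deficient diet. The count was 25 or 26 over the scalings and over the fits that left out 1 array.

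Again 3 promoters are shown because cell cycle promoters are known for CCAAT boxes, the site of the factor NF-Y, which often come in several copies. Capitals mark CCAAT or its reverse complement, ATTGG. The windows are 250 bases before the start (RefSeq, GRCm38.p6), all on the minus strand: chr11:99024190-99024439 for Top2a, chr10:69352913-69353162 for Cdk1 and chr9:70421555-70421804 for Ccnb2.
Top2a: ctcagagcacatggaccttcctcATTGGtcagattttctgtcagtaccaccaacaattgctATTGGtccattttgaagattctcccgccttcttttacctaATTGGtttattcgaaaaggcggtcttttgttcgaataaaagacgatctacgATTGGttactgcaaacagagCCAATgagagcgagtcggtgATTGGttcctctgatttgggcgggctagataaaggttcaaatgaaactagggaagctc
Cdk1: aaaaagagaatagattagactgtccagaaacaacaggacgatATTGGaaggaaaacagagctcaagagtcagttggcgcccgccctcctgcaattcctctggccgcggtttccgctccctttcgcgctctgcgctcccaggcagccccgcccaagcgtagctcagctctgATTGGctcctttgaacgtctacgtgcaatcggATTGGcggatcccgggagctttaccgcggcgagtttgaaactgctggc
Ccnb2: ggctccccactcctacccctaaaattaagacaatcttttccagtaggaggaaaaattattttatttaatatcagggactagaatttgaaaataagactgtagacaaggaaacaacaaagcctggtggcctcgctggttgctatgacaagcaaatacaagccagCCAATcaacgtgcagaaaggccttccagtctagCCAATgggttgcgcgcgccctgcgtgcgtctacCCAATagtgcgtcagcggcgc
The window of Top2a holds 6 matches and those of Cdk1 and Ccnb2 hold 3 each. A match was present in 18 of the 21 tested members with a promoter in the table, against 37.5% of 27025 genes. The letters TTTGAA, the core of the cell cycle homology region, searched on both strands, were present in 7 of the 21, against 18.3%.

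Top2a, which untangles DNA before division, was above background on no WSB/EiJ control array and on all 4 deficient arrays, at 0.04 ± 0.18 (SD, n = 4), and had an uncalled A/J effect of 0.88. Cdk1, the kinase that drives entry into mitosis, differed by 3.25 ± 0.39 (above background on 2 control arrays of each strain), and Ccnb2, one of its cyclins, by 1.43 ± 0.25. Mki67, the proliferation antigen, was at -1.31, -0.37, -0.87 and 0.50 in the A/J controls and 0.87, 0.31, 0.62 and -0.24 on the deficient diet, overlapping. In WSB/EiJ it went from -1.85, -1.56, -2.39 and -2.16 to 2.66, 2.91, 2.57 and 2.59, a 25.5-fold rise (adjusted p = 2.9e-05 for the difference). Ccna2 rose 23.4-fold in WSB/EiJ with an uncalled A/J effect of 0.47. Foxm1, a transcription factor of the cell cycle that 1 WSB/EiJ control array measured above background, and Kif20a, a mitotic kinesin, rose in both strains, 1.82-fold and 1.58-fold in A/J and 14.1-fold and 12.0-fold in WSB/EiJ. Ccnd1, the cyclin of cell cycle entry, rose in both strains with a smaller difference, 4.10-fold in A/J and 7.86-fold in WSB/EiJ.

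Of the targets of p53 and of DNA damage signalling, 11 of 19 were called higher and 2 lower (1 without some single arrays), with a median difference of 0.77. Gadd45b, a stress-induced growth arrest gene, rose 5.97-fold in WSB/EiJ against an uncalled 0.06 in A/J. Phlda3, a repressor of AKT, rose 14.8-fold there, and Tnfrsf10b, a death receptor, 14.0-fold; neither was called in A/J. Cdkn1a, which encodes the cell cycle inhibitor p21, had an uncalled difference of 1.41 (adjusted p = 0.078; 95% interval 0.03 to 2.79). It was called with quantile (1.71) and spike-in scaling (2.03), and another probe of the gene gave a called 2.14 (adjusted p = 0.00104).

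**Figure D3:**
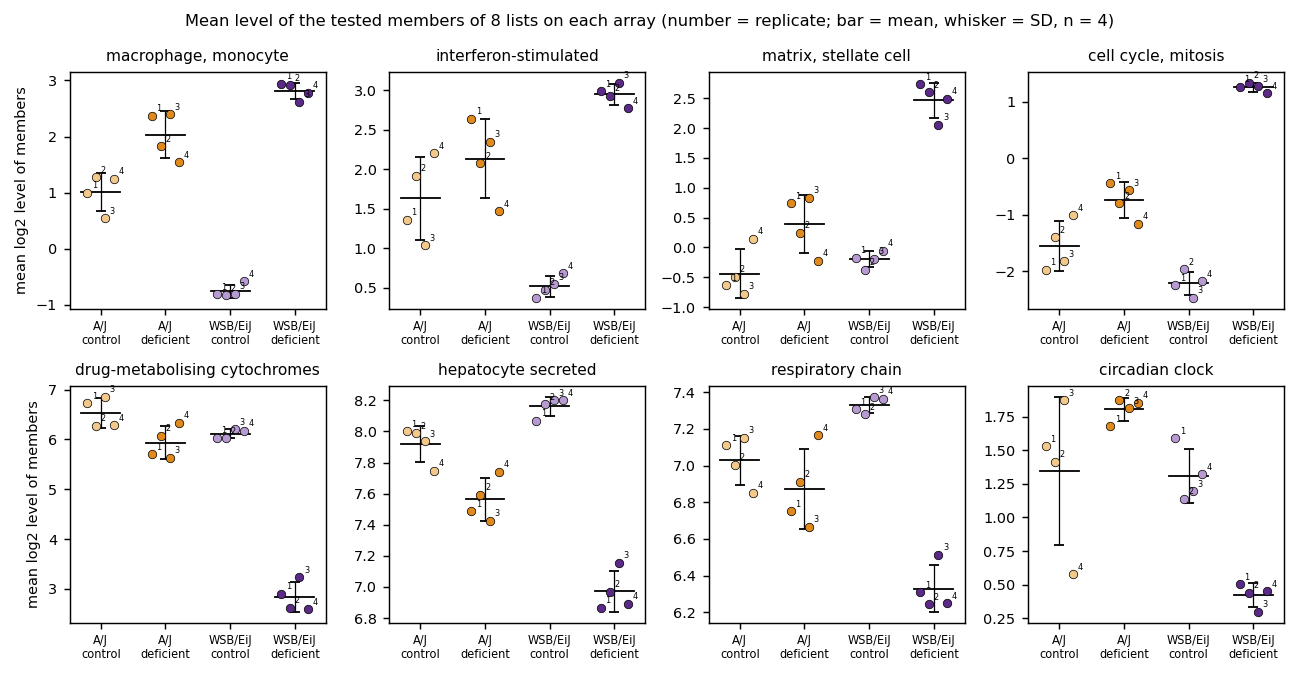
Mean level over the tested members of 8 gene lists on each of the 16 arrays (log2 processed signal relative to the 75th percentile of the array), by strain and diet. The WSB/EiJ deficient arrays hold the highest means for macrophage markers (2.62 to 2.94), interferon genes (2.77 to 3.09), matrix genes (2.06 to 2.73) and cell cycle genes (1.15 to 1.34), and the lowest for cytochromes (2.60 to 3.23) and hepatocyte secreted proteins (6.87 to 7.16).

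Drug-metabolising cytochromes P450, enzymes of the hepatocyte, had the lowest median effect in WSB/EiJ of the 43 lists. Of 22 tested, 19 were called lower in the difference and none higher, against 35.8% and 18.1% of all genes. The median effect was -0.54 in A/J and -2.68 in WSB/EiJ, and the median difference, -1.84, was -1.60 relative to all genes. Counts of lower members were 17 to 19 over the scalings; quantile normalization called 2 higher and spike-in scaling 1. Mean levels were 6.27 to 6.86 in the A/J controls, 5.63 to 6.33 on the deficient diet, 6.03 to 6.2 in the WSB/EiJ controls and 2.60 to 3.23 on the deficient diet.

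Cyp2c37 (chr19:40086467-40086526, mm9) and its neighbours on the same chromosome, Cyp2c54, Cyp2c50 and Cyp2c38, were among the 12 largest negative differences. Cyp2c37 read 5.37, 4.72, 5.47 and 4.79 in the A/J controls and 4.25, 4.81, 4.15 and 5.07 on the deficient diet, overlapping. Its WSB/EiJ levels went from 4.60, 4.22, 4.49 and 4.32 to -2.84, -3.39, -2.02 and -3.71, a 168-fold fall, and the difference was -6.88 ± 0.45 (adjusted p = 3.6e-07). Cyp2c54 fell in both strains, 2.47-fold in A/J and 217-fold in WSB/EiJ. Genes of this family are near copies, so a probe may read several of them. Another probe for Cyp2c38 gave 0.33 where the brightest gave -5.15, and other probes for Cyp2c54 gave -5.68 and -2.26. Cyp2b10, which the receptor CAR induces, fell 23.6-fold in WSB/EiJ with an uncalled A/J effect of 0.27.

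The largest negative difference among genes above background throughout was that of Nuggc (chr14:66267169-66267228, mm9), a nuclear GTPase known from germinal centre B cells. It read 3.32, 4.24, 3.63 and 3.87 in the WSB/EiJ controls and -4.11, -4.34, -2.96 and -3.92 on the deficient diet, a 194-fold fall. In A/J it lay between -1.07 and -0.14 on all 8 arrays. The difference was -7.94 ± 0.40 (adjusted p = 4.9e-08). WSB/EiJ controls were thus above, and WSB/EiJ deficient arrays below, every A/J array. Pax2, a transcription factor of kidney development, fell 144-fold in WSB/EiJ, from between 6.76 and 7.67 to between -1.18 and 1.75, with an uncalled A/J effect of -1.23.

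Genes higher in male than in female liver fell in the same way. Of 15 tested, 14 were called lower and none higher, with median effects of -0.64 in A/J and -2.50 in WSB/EiJ; 11 remained called lower with quantile normalization, which called 1 higher, and 11 with spike-in scaling. The WSB/EiJ controls started above the A/J controls, with means of 7.91 to 8.02 against 5.65 to 5.98, and ended at 4.39 to 5.12 against 4.73 to 5.23. Elovl3, a fatty acid elongase, went from 5.23, 5.89, 4.58 and 6.26 to 2.64, 3.58, 1.55 and 3.47 in A/J. In WSB/EiJ it went from 7.92, 8.17, 8.16 and 8.10 to -1.01, 0.79, 1.60 and 1.15, so that it fell 6.41-fold and 175-fold with no overlap in either strain. Hsd3b5, a steroid dehydrogenase of male liver, fell 2.81-fold and 60.7-fold. Moxd1, a monooxygenase, was above background on all 4 WSB/EiJ control arrays (2.94 to 4.45), on 1 WSB/EiJ deficient array and on 1 A/J array, a control. Its difference of -8.58 thus sets WSB/EiJ against signals near background. Of the genes higher in female liver, 2 of 9 were called lower, Cyp2a4 (-3.09) and Cyp2b9 (-4.02; above background on 1 WSB/EiJ deficient array), and none higher; their median difference of 0.14 was negative under at least 1 other scaling.

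Proteins that hepatocytes secrete, with the factors that control them, were called lower for 31 of 33 and higher for none, with a median difference of -0.73, or -0.50 relative to all genes. The counts depended on the scaling: 10 were called lower with quantile normalization and 6 with spike-in scaling, while the median stayed negative under each scaling tried (-0.12 at the least). C8b, a complement component, fell 1.53-fold in A/J and 6.92-fold in WSB/EiJ, and Fetub, a liver protease inhibitor, 1.59-fold and 5.36-fold. Alb, serum albumin, fell 1.32-fold and 1.95-fold, a difference of -0.56 ± 0.15 that was 0.15 with quantile normalization and 0.06 with spike-in scaling.

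Urea cycle and amino acid catabolism genes were called lower for 17 of 25 and higher for none (10 and 8 lower with quantile and spike-in scaling), with a median of -0.94. Oat, ornithine aminotransferase, fell 8.31-fold in WSB/EiJ, and its A/J effect of -0.46 was not called. Glul, the glutamine synthetase of hepatocytes around the central vein, moved in opposite directions: it rose 1.63-fold in A/J, from 5.47, 5.24, 5.39 and 5.05 to 6.15, 6.18, 5.79 and 5.87. It fell 2.14-fold in WSB/EiJ, from 3.47, 3.83, 3.16 and 3.76 to 2.27, 2.59, 2.62 and 2.35.

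Of 24 genes of the mitochondrial respiratory chain, 23 were called lower in the difference and none higher. All 24 were called down in WSB/EiJ and none in A/J, with medians of -1.0 and -0.13. The changes were small and even, so the call hung on the scaling: 12 were called lower with quantile normalization and 1 with spike-in scaling, although the median stayed negative throughout (-0.23 at the least). Atp5a1, a subunit of the ATP synthase, fell 2.26-fold in WSB/EiJ, and Sdha, of complex II, fell 1.89-fold.

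Bile acid synthesis and transport genes were called lower for 13 of 19 and higher for 3, Slco1a4, Abcc4 and Cyp39a1, with a median of -1.12. Slco1b2, an uptake carrier, lay between 8.07 and 8.83 on the 8 A/J arrays. It went from 8.37, 8.47, 8.42 and 8.51 to 6.74, 6.94, 6.93 and 6.57 in WSB/EiJ, a difference of -1.75 ± 0.20. Cyp27a1, of the alternative synthesis pathway, fell 4.15-fold in WSB/EiJ. Abcc3, an export pump, fell 4.18-fold there, and neither was called in A/J. Cyp7a1, the rate-limiting enzyme, fell 5.53-fold in WSB/EiJ, with an uncalled A/J effect of -1.48 and an uncalled difference of -0.99 (95% interval -2.60 to 0.63).

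**Figure D4:**
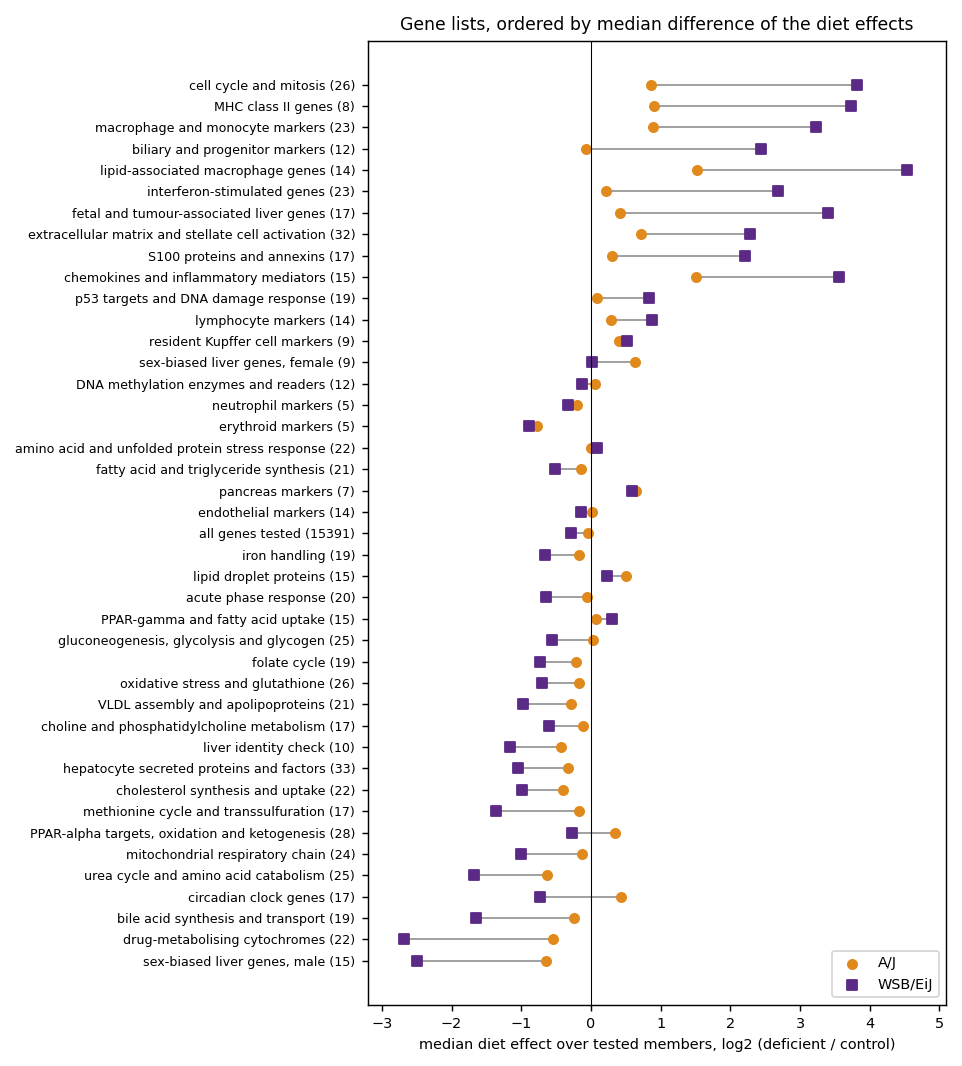
Median diet effect over the tested members of each gene list (log2, deficient over control) in A/J and WSB/EiJ, with the number of members in brackets, ordered by the median difference and with all 15391 genes as one entry. By the WSB/EiJ medians, lipid-associated macrophage genes (1.53 in A/J and 4.54 in WSB/EiJ) lie furthest to the right. Cell cycle genes (0.86 and 3.82), MHC class II genes (0.90 and 3.73) and chemokines (1.5 and 3.56) come next. Cytochromes (-0.54 and -2.68) lie furthest to the left by those medians, while in A/J erythroid markers (-0.77) lie further left. Of the 41 lists, 16 change the sign of their median difference under another scaling.

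Single genes of lipid handling responded alike in the strains or differed. Among lipid droplet proteins, 3 of 15 were called higher in the difference, Cidec, Pnpla3 and Hilpda, and 6 lower. These counts are close to the 18.1% and 35.8% of all genes. The median of -0.48 changed sign under other scalings (0.06 with quantile and 0.14 with spike-in scaling). Plin2, the main coat protein of hepatic droplets, rose 1.55-fold in A/J and 1.44-fold in WSB/EiJ, and its difference of -0.10 was not called (95% interval -0.54 to 0.34). Cidec, which fuses droplets, rose 9.31-fold and 51.3-fold. Its A/J levels went from -2.30, -1.22, -1.01 and 0.35 to 3.07, 1.57, 3.42 and 0.64, and its WSB/EiJ levels from -1.20, -2.52, -2.40 and -2.88 to 3.93, 2.88, 3.55 and 3.35. Neither strain's groups overlapped, and the deficient arrays of the strains did. The difference of 2.46 (adjusted p = 0.029) was no longer called without any 1 of A/J control 4, A/J deficient 2 or 4, WSB/EiJ control 2 or 4, or WSB/EiJ deficient 1, with values of 1.95 to 2.37 (adjusted p from 0.0514 to 0.0589). Fitm2, which partitions triglyceride into droplets, rose 1.65-fold in A/J and fell 2.72-fold in WSB/EiJ (adjusted p = 1.8e-06 for the difference of -2.17). Another Fitm2 probe gave a WSB/EiJ effect of -0.34 and a difference of -0.86 (adjusted p = 0.0204). Hilpda, an inhibitor of droplet lipolysis, rose 4.25-fold in WSB/EiJ with an uncalled A/J effect of 0.23.

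Of PPAR-gamma targets and fatty acid uptake genes, 4 of 15 were called higher and 8 lower, against 18.1% and 35.8% of all genes. The list as fixed also holds Mgat1, a glycosylation enzyme. Its median of -0.52 became 0.09 with spike-in scaling. The fatty acid transporter Cd36 was at 0.37, 0.38, 1.39 and 0.67 in the A/J controls and 3.22, 3.19, 3.16 and 3.09 on the deficient diet. In WSB/EiJ it was at 0.98, -0.11, 0.64 and -0.16 and then at 3.18, 2.96, 2.82 and 2.92. The groups separated by diet in both strains, 5.51-fold and 6.21-fold, and the difference was 0.17 with a 95% interval of -0.59 to 0.93. The receptor gene Pparg itself rose in both, 2.39-fold and 4.03-fold, a difference of 0.75 (adjusted p = 0.023) that was not called with normexp and quantile normalization (0.40) or with all 24 arrays in the fit (adjusted p = 0.055). The 8 lower genes include acyl-CoA synthetases and carriers of the hepatocyte. Acsl1 fell 6.36-fold in WSB/EiJ, from between 9.06 and 9.34 to between 6.38 and 6.89, while the A/J arrays read 8.01 to 8.54 on both diets. Slc27a2 fell 2.97-fold in WSB/EiJ with an uncalled A/J effect of 0.07.

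Targets of PPAR-alpha, with the genes of fatty acid oxidation and ketogenesis, had a positive median effect in A/J (0.35) and a negative one in WSB/EiJ (-0.28), which became 0.21 with quantile and 0.69 with spike-in scaling. Of 28 tested, 16 were called lower in the difference and 4 higher, Fgf21, Cyp4a14, Acot2 and Pdk4; 11 and 7 were called lower with quantile and spike-in scaling. Cpt2, of the carnitine shuttle, fell 2.31-fold in WSB/EiJ with an uncalled A/J effect of 0.07. Its partner Cpt1a, at the entry of the shuttle, rose 1.68-fold in A/J and had an uncalled WSB/EiJ effect of 0.00, a difference of -0.74 (adjusted p = 0.0067). That call was lost with quantile (-0.39) and spike-in scaling (-0.12), and another probe gave an uncalled -0.64.

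Fgf21, a hormone that the fasted or stressed liver releases, ran against its list. It read 0.47, 1.75, 1.70 and 0.63 in the A/J controls and 3.96, 2.74, 4.67 and 2.84 on the deficient diet. In WSB/EiJ it went from -1.64, -0.88, -2.95 and -2.50 to 4.88, 4.92, 3.66 and 4.87. Fgf21 rose 5.33-fold and 95.3-fold with no overlap in either strain, a difference of 4.16 ± 0.74 (adjusted p = 4.2e-04), and its deficient ranges met between the strains. Cyp4a14, a fatty acid omega-hydroxylase, rose 47.2-fold in WSB/EiJ from a control range of -4.83 to -1.20, where 3 of 4 arrays were above background. It was at 4.68 to 7.31 in the A/J controls and 7.80 to 8.31 on the deficient diet (effect 1.99, not called), so WSB/EiJ stayed below A/J on both diets.

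**Figure D5:**
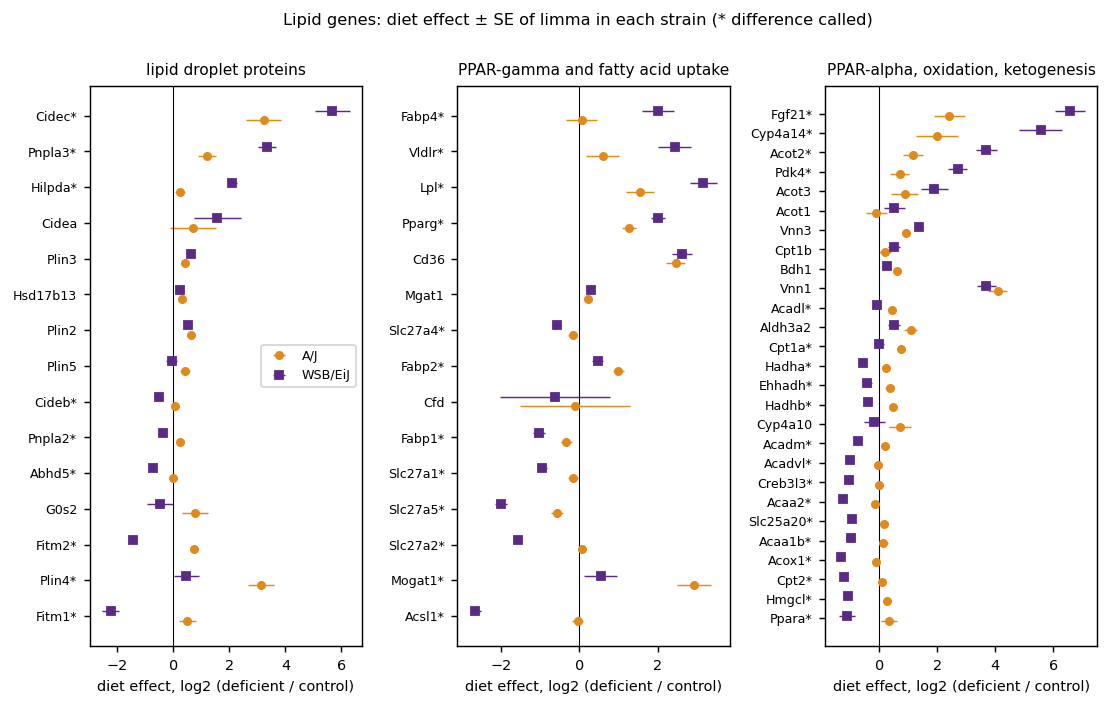
Diet effect (log2, deficient over control) with its SE for genes of 3 lipid lists in A/J and WSB/EiJ; an asterisk marks a called difference. Cd36 (2.46 and 2.63) and Plin2 (0.63 and 0.53) lie together in the strains, Fgf21 (2.41 and 6.57) lies further up in WSB/EiJ, and Acsl1 (-0.05 and -2.67) lies further down; the differences of Plin2 and of other small effects change sign with the scaling.

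Of genes for fatty acid and triglyceride synthesis, 2 of 21 were called higher, Scd1 and Scd2, and 5 lower, against 18.1% and 35.8% of all genes. The higher count was 5 without A/J deficient replicate 4. The list's median of -0.17 became 0.10 and 0.45 with quantile and spike-in scaling. Scd1, the delta-9 desaturase, rose 1.92-fold in WSB/EiJ against an uncalled A/J effect of -0.71, and the difference was 1.65 ± 0.43. Its levels were 3.49 to 4.52 in the WSB/EiJ controls and 4.79 to 5.30 on the deficient diet, below all 8 A/J arrays (6.21 to 7.94). Fasn, fatty acid synthase, fell 2.07-fold in A/J and was not called in WSB/EiJ (effect -0.23), and its difference of 0.82 was not called (95% interval 0.03 to 1.61), but was with quantile (0.96) and spike-in scaling (1.44). Mlxipl, the carbohydrate-sensing factor ChREBP, fell 1.22-fold and 4.02-fold by its brightest probe, and another probe of the gene gave a difference of 0.03. Dgat2, which makes triglyceride, fell 2.69-fold in WSB/EiJ with an uncalled A/J effect of 0.21.

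Genes of lipoprotein assembly were called lower for 13 of 21 and higher for 1, Pltp; that call was absent without any 1 of 8 of the arrays, and leaving out A/J control 4 or WSB/EiJ deficient 4 gave 2 higher. The 8 were A/J control 1 and 2, A/J deficient 2 and 3, WSB/EiJ control 2 and 3 and WSB/EiJ deficient 2 and 3. The median of -0.69 became 0.03 with quantile normalization, which called 4 lower and 1 higher, and spike-in scaling called none lower and 2 higher. Mttp, which loads lipid onto apolipoprotein B, fell 1.97-fold in WSB/EiJ and had an uncalled A/J effect of -0.23. Apob fell 1.82-fold in WSB/EiJ, with an uncalled -0.13. Apoa4, which enlarges the secreted particles, rose by a like amount in both strains: from 2.63, 2.45, 3.12 and 2.47 to 6.19, 6.31, 6.78 and 6.0 in A/J. Its WSB/EiJ levels went from 3.58, 3.70, 3.57 and 4.18 to 8.02, 7.18, 7.92 and 7.03. These were rises of 12.5-fold and 13.7-fold, and the difference was 0.13 with a 95% interval of -0.62 to 0.88.

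Cholesterol synthesis and uptake genes were called lower for 8 of 22 and higher for none, against 35.8% of all genes lower, with a median of -0.75. The count was 18 without WSB/EiJ control replicate 4, 4 without A/J deficient replicate 4, and 5 without WSB/EiJ control 1, 2 or 3. Spike-in scaling called 1 lower and 1 higher. Tm7sf2, a sterol reductase, fell 1.83-fold in A/J and 5.57-fold in WSB/EiJ.

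The lists closest to the nutrients that were withheld had more members called lower than higher, as did all genes (35.8% lower and 18.1% higher). That balance changed with the scaling. Methionine cycle and transsulfuration genes were called lower for 10 of 17 and higher for none, with median effects of -0.17 in A/J and -1.36 in WSB/EiJ; the calls numbered 7 and 5 lower with quantile and spike-in scaling, which also called 1 and 2 higher. Leaving out A/J control replicate 4 gave 1 higher. Ahcy, which hydrolyses S-adenosylhomocysteine, went from 7.0, 6.74, 7.01 and 6.37 to 6.0, 6.09, 5.87 and 6.52 in A/J, overlapping at replicate 4 of each. In WSB/EiJ it went from 5.58, 5.45, 5.55 and 5.6 to 2.76, 3.02, 3.35 and 2.70. It fell 1.58-fold and 6.01-fold, a difference of -1.93 ± 0.25 (adjusted p = 3.8e-05). Mat1a, the liver enzyme that makes S-adenosylmethionine, fell 2.90-fold in WSB/EiJ, with an uncalled A/J effect of -0.16.

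The methyltransferase genes Gnmt, Nnmt and Bhmt were each called lower in the difference. Gnmt, which methylates glycine, fell in both strains, 2.26-fold and 4.47-fold, a difference of -0.99 ± 0.32. Nnmt, which methylates nicotinamide, stood at 5.01, 5.01, 5.17 and 5.0 in the WSB/EiJ controls and at 1.14, 0.82, 2.27 and 1.57 on the deficient diet, a 12.1-fold fall. In A/J it lay between -2.23 and 0.20 on the 8 arrays, below every WSB/EiJ array, with no call. Bhmt, which uses betaine derived from choline, fell 1.77-fold and 2.98-fold. Its difference of -0.75 (adjusted p = 0.032) was no longer called without A/J control 2 or 4, A/J deficient 4, WSB/EiJ control 3 or 4, or WSB/EiJ deficient 2 or 4, with values of -0.73 to -0.61 (adjusted p from 0.0520 to 0.0673).

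Choline and phosphatidylcholine genes were called lower for 12 of 17 and higher for none, with a median of -0.71; 6 and 2 were called lower with quantile and spike-in scaling, which called 2 and 3 higher. Chpt1, the last step from choline to phosphatidylcholine, fell 4.12-fold in WSB/EiJ and had an uncalled A/J effect of -0.26. Etnk2, an ethanolamine kinase of liver, fell 4.30-fold there by its brightest probe; other probes gave differences of -1.41 and an uncalled -0.66 against -1.70. Pemt, which makes phosphatidylcholine without dietary choline, fell 1.58-fold in WSB/EiJ; its difference of -0.40 (adjusted p = 0.028) was no longer called without WSB/EiJ control 3 or WSB/EiJ deficient 4 (-0.37 and -0.35), and was 0.12 with quantile and 0.22 with spike-in scaling.

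Of folate cycle genes, 11 of 19 were called lower and 1 higher, Mthfd2 (1.49), a mitochondrial enzyme of dividing cells. Spike-in scaling called 2 lower and 5 higher and turned the median of -0.61 to 0.0054. Leaving out A/J control 1, A/J deficient 3 or WSB/EiJ control 4 gave 2 higher. Shmt1 and Shmt2, the serine hydroxymethyltransferases, fell 2.66-fold each in WSB/EiJ, and Slc46a1, the folate carrier, 2.15-fold. Of the enzymes and readers of DNA methylation, 2 of 12 were called higher, Uhrf1 and Mbd4, and 4 lower, near the 18.1% and 35.8% of all genes. The higher ones numbered 4 without A/J deficient 3 or WSB/EiJ control 3. The list's median of -0.03 became 0.59 with spike-in scaling. Uhrf1, which recruits the maintenance methyltransferase in S phase, rose 23.2-fold in WSB/EiJ (above background on 2 of 4 control arrays), with an uncalled A/J effect of 0.94. Dnmt3b, a de novo methyltransferase, fell 1.83-fold in A/J, and its difference of 0.69 was not called (95% interval 0.06 to 1.33).

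Circadian clock genes had a positive median effect in A/J (0.43) and a negative one in WSB/EiJ (-0.73). The A/J median was 0.053 without A/J control replicate 4, whose mean over the list was 0.58 against 1.41 to 1.87 on the other A/J controls, and the WSB/EiJ median was 0.23 with spike-in scaling. Of 17 tested, 9 were called lower in the difference and 1 higher, Arntl (1.05), which drives the cycle and peaks opposite to most of the others. Without A/J deficient 2 or WSB/EiJ deficient 3, 2 were higher. Usp2, a deubiquitinase under clock control, rose 4.51-fold in A/J, from -0.85, -1.05, -0.08 and -1.05 to 1.57, 1.37, 1.63 and 1.07. In WSB/EiJ it fell 2.00-fold, from 1.24, 0.35, 1.42 and 0.79 to 0.69, -0.17, -0.56 and -0.17, with overlap. Tef and Hlf, output factors of the clock, fell 4.72-fold and 4.30-fold in WSB/EiJ with no call in A/J. Dbp, another such factor, rose 5.66-fold in A/J and was not called in WSB/EiJ (-0.11). A/J control replicate 4 was far from the others, the levels being 4.97, 4.91, 5.88 and 1.32, and without it the Dbp difference of -2.61 was -1.62 (adjusted p = 0.00152). The call ended without A/J deficient 1 or 4, WSB/EiJ control 3 or WSB/EiJ deficient 2 or 4, with values of -2.59 to -2.42 (adjusted p from 0.0530 to 0.0634). The labels give no time of day for the tissue, and the part of sampling time in the clock result was not tested.

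Stress, redox and acute phase genes had members on both sides. Of the amino acid and unfolded protein stress genes, 9 of 22 were called higher and 4 lower, with a median of -0.16 that became 0.53 with quantile normalization. The 4 lower became 8 without A/J control 4 and 2 without A/J deficient 4, WSB/EiJ control 1, 2 or 3 or WSB/EiJ deficient 1. Atf3, a stress-induced transcription factor, rose 3.75-fold in A/J and 53-fold in WSB/EiJ. Slc7a11, the cystine importer, was above background only on the 4 WSB/EiJ deficient arrays and rose at least 1.36-fold there.

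Of oxidative stress and glutathione genes, 5 of 26 were called higher and 13 lower, against 18.1% and 35.8% of all genes, with a median of -0.64. With quantile and spike-in scaling 7 and 8 were higher and 6 lower in each, and the median was -0.03 in both. The 5, Hmox1, Gsta1, Gsta2, Gpx2 and Gpx3, became 3 without A/J control 2 or 3, WSB/EiJ control 4 or WSB/EiJ deficient 3 or 4, and 2 without A/J deficient 2 or 4, WSB/EiJ control 2 or WSB/EiJ deficient 1. Cat, catalase, fell 1.44-fold in A/J and 4.61-fold in WSB/EiJ, and Gstp1, a glutathione transferase, 1.28-fold and 4.99-fold. Of acute phase genes, 3 of 20 were called higher, Lcn2, Orm2 and Saa3, and 9 lower, against 18.1% and 35.8% of all genes. Their median of -0.48 became 0.13 with quantile and 0.14 with spike-in scaling. Lcn2, which binds bacterial siderophores, rose 9.34-fold and 34.2-fold; Saa3 rose 6.05-fold in WSB/EiJ, with an uncalled A/J effect of 0.14. Crp, made by hepatocytes, fell 3.53-fold in WSB/EiJ against an uncalled -0.08.

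Of genes for glucose and glycogen metabolism, 3 of 25 were called higher and 14 lower; the median of -0.53 became 0.16 with quantile scaling (5 higher, 6 lower) and 0.093 with spike-in scaling (7 higher, 4 lower). The higher ones, Pkm, Hk2 and Hk3, are glycolytic enzymes that adult hepatocytes scarcely use. Hk3, found in myeloid cells, rose 11.2-fold in WSB/EiJ, where macrophage markers rose too; the part of macrophages in it was not tested. Ppp1r3c, which targets a phosphatase to glycogen, fell 5.42-fold. Of iron-handling genes, 2 of 19 were called higher, Bmp6 and Id1, and 10 lower, and the median of -0.38 became 0.22 with quantile (3 higher, 5 lower) and 0.24 with spike-in scaling (5 higher, 1 lower). Tfr2, the iron-sensing transferrin receptor of hepatocytes, fell 1.45-fold and 2.88-fold. Ftl1, ferritin light chain, fell 2.03-fold in WSB/EiJ, and its difference of -0.78 was 0.05 with quantile normalization.

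In 133 genes the diet effect was called in opposite directions, up in A/J and down in WSB/EiJ for 108 and the reverse for 25. Besides Ly6a and Ly6c1, the largest were AW549542, Rnase2a, Adgrv1 and Kcnk10, all up in A/J. AW549542 rose 3.12-fold, from -0.25, -1.0, 0.04 and -0.75 to 1.46, 1.17, 1.12 and 0.86. It fell 10.5-fold in WSB/EiJ, from -0.70, -0.96, -0.95 and -0.89 to -4.48, -4.26, -4.49 and -3.82, so that the strains overlapped on the control diet and lay over 4 log2 units apart on the deficient one. Rnase2a, an eosinophil-associated ribonuclease, rose 2.98-fold and fell 8.39-fold. Adgrv1, an adhesion receptor, rose 3.33-fold and fell 7.26-fold, and Kcnk10, a potassium channel, rose 5.04-fold and fell 2.63-fold.

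At the other end, 2016 genes were called the same way in both strains, 83.4% of the genes called in A/J and 17.6% of those called in WSB/EiJ. Of these, 666 were not called for the difference, 314 of them up and 352 down. Cd36, Apoa4 and Plin2 above are among the 314.

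Markers of further cell types were read on the same arrays. Of 14 lymphocyte markers, 2 were called higher, Cd3g (2.95, above background on 1 WSB/EiJ control array) and Cd79b, and 2 lower, Cd4 (-1.35) and Nkg7 (-0.59). These counts stand against 18.1% and 35.8% of all genes. Mean levels were -1.66 to -0.86 in the A/J controls, -1.46 to -0.39 on the deficient diet, -2.41 to -2.01 in the WSB/EiJ controls and -1.67 to 0.65 on the deficient diet. The 0.65 came from WSB/EiJ deficient replicate 4, the others lying at -1.67 to -1.62. Cd3g stood at 1.24 on that array against -2.46 to -1.37 on the others of its group, and its difference was 2.20 without it. The same array had a mean of 1.64 over the pancreas markers, against -2.22 to -1.57 on the others of its group; the part of other tissue in the lymphocyte values was not tested. Another probe of Nkg7 gave an uncalled 1.96. The 2 higher became 4 without A/J deficient 1 or WSB/EiJ deficient 3. They became 1 without any 1 of A/J control 1 or 2, A/J deficient 2, 3 or 4, or any WSB/EiJ control. Of 5 neutrophil markers, S100a9 was called higher (2.14) and Camp lower (-1.11), and the median of -0.12 became 0.40 with quantile normalization.

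Endothelial markers were called lower for 4 of 14 and higher for none, against 35.8% and 18.1% of all genes. Their median of -0.21 lay near that of all genes (-0.24) and became 0.41 with spike-in scaling. Only 2 were lower without A/J control 3 or 4, A/J deficient 2 or WSB/EiJ deficient 4. Leaving out A/J control 2 or A/J deficient 2 gave 1 higher. Stab2, a scavenger receptor of sinusoidal endothelium, rose 2.09-fold in A/J and fell 1.51-fold in WSB/EiJ by its brightest probe, and another probe gave a difference of 0.26. Its relative Stab1 differed by -0.40, no longer called without A/J control 3 or 4, A/J deficient 2, WSB/EiJ control 3 or WSB/EiJ deficient 4 (-0.37 to -0.33; adjusted p from 0.0512 to 0.0574). Erythroid markers fell in both strains, all 5 in each, and none was called for the difference; their median of -0.14 became 0.47 with spike-in scaling. Of 7 pancreas markers none was called, and their median of -0.20 became 0.42 with spike-in scaling. Ctrb1, a digestive protease, stood at 3.59 on A/J deficient replicate 1 and 3.15 on WSB/EiJ deficient replicate 4, against -0.71 to 1.14 on the other 14 arrays. The only adipose marker tested, Cfd, was not called (-0.53, which became 0.09 with spike-in scaling). Of 4 mesothelial markers, Krt8 was called higher (1.26), but it is also in the list of fetal and tumour liver genes. Wt1 and Msln were not called (2.48 and 0.44). Leaving out A/J control 1 or A/J deficient 4 gave 2 called.

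The arrays lay on 3 slides, each with all 4 groups. Within a slide, the difference had the same sign as in the fit of all 16 arrays for 99.5%, 99.0% and 99.8% of the called genes, which the use of the same arrays in part fixes. With the slide as a block 8241 genes were called. Calls of the A/J diet effect rose from 2416 to 3620 with the slide as a fixed block and to 3228 as a random block. Deviations from group means correlated at a mean of 0.12 between groups on the same slide and -0.058 on other slides. The fixed block ended the named calls of Cd5l, Marco, Cidec, Pemt, Bhmt and Dbp, and the random block ended none.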

How the data were processed

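Single-colour Agilent arrays were scanned with Feature Extraction 10.7, per the file headers and the submitters' processing notes. The deposited processed signal is an intensity, detrended within each array, with local background subtraction switched off, and not scaled between arrays, per the file headers. The log2 of the authors' deposited normalized values differs from log2 of that signal by 1 constant per array.

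The log2 processed signal minus each array's 75th percentile over gene probes was used. Outlier spots (3332) were left out, replicate spots averaged and the brightest probe kept per gene. Of 55681 gene probes, 22770 had no gene name. A gene was tested if, in 1 or more of the 4 groups, each of the 4 arrays had it well above background. A gene low in the other groups could so enter through the group where it was high. limma 3.58.1 in R 4.3.3 fitted group means over 16 arrays, with 2-sided tests and Benjamini-Hochberg adjustment at 0.05; the script was tested on simulated data. The number of arrays limits the precision, and no gene spot was saturated. Where no array of a group was above background, "at least" sets the mean of the bright group against the mean, per array, of the higher of the probe's own signal and the lowest signal well above background.

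Samples were grouped by the labels. Members and the 43 lists were chosen with earlier results of these data known. Genes named are the 12 largest differences each way (above background on at least 3 arrays per group), the 6 largest called in opposite directions, up to 3 members per list with the lowest adjusted p, and a panel of 42; some of these genes are not reported here and were not replaced. Abcc4, Acot2, Arntl, Bmp6, Ccnb2, Cd79b, Cdk1, Col5a2, Cyp39a1, Fn1, Gpx2, Gpx3, Gsta1, Gsta2, H2-Aa, Hk2, Hmox1, Id1, Ifit1, Isg15, Mthfd2, Orm2, Pdk4, Pkm, Pltp, Pnpla3, Scd2, Slco1a4 and Top2a were chosen after their values were seen. Alternatives covered the scaling, background correction, filters, probe choice, slide, replicate block, all 24 arrays and single arrays left out; leaving out replicate 4 of both A/J groups was added after seeing the data. Probe coordinates are those of the files (mm9); promoters are RefSeq GRCm38.p6, and exon or UTR positions of probes were not analysed here.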

Additional observations from a re-analysis of the deposited data

Results flagged for a closer look

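Single arrays stood apart from the other 3 of their group in 36 of 700 groups examined (5.14%), near the 1 in 20 that the criterion sets. The groups of different genes share the same arrays, so this share cannot tell whether chance gave these cases. The A/J control replicate 4 array accounted for 9 of them: it was high for Ly6d (2.88, next -2.09), Fxyd6 (1.83), Cd24a (-0.14), Acta2 (2.76) and H19 (3.98, next -3.66). It was low for Acsl1 (8.01), Mttp (4.46), Dmgdh (6.67) and Tef (4.61). WSB/EiJ deficient replicate 3 accounted for another 9, and was low for Cpe (2.70), Sftpd (1.42), Cd24a (-0.31), Cd74 (5.09), H2-DMa (0.036), Fgf21 (3.66), Timp1 (2.00) and Trem2 (4.47) and high for Cyp2c50 (1.39). Without A/J control replicate 4 the called differences of Ly6d, Fxyd6, Cd24a, Acta2 and H19 were 3.31, 3.42, 3.35, 1.73 and 6.10.

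In the other WSB/EiJ controls, replicate 1 was low for Cybb (-6.05), Tmprss6 (6.82) and Ubd (-5.10), and replicate 3 was high for Dgat2 (8.66), Slc46a1 (5.69), Nnmt (5.17) and Dbp (1.24). Replicate 4 of that group was low for Tm7sf2 (6.49) and Nkg7 (1.87) and high for S100a9 (-0.066). In the A/J controls, replicate 2 was low for Adgrv1 (-1.93) and replicate 3 high for Mbl1 (5.79). In the A/J deficient group, replicate 4 was high for Csf3r (6.40) and Fetub (7.94), replicate 3 for Gadd45b (0.94) and replicate 1 for Ctrb1 (3.59). In the WSB/EiJ deficient group, replicate 1 was low for Alas2 (2.25) and replicate 4 high for Ctrb1 (3.15).

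The test of the difference between the strains' responses picked out 8284 genes, and 133 genes were called in opposite directions. Probes without a gene name, left out of the comparisons above, held signal of the same kind: 3058 of 7218 tested were called for the difference (42.4%), 543 higher (7.52%) and 2515 lower (34.8%).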

How the results depend on the processing

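The count of 8284 called genes was 7503 to 8576 when each array was left out in turn (2510 to 2863 higher and 4988 to 5713 lower), 7840 with a replicate block, 8241 and 8504 with the slide as a fixed or random block, 7591 with all 24 arrays and 7102 without replicate 4 of both A/J groups. A minimum difference of 1 log2 unit left 3474, of which 1567 were lower. The replicate numbers did not pair the arrays (mean correlation -0.045 within a number, 0.0146 across numbers), and the block moved the A/J count from 2416 to 1798. Higher genes numbered 4360 with the percentile over detected probes, 6263 with spike-in scaling and 1817 where all arrays had to be above background. Lower genes numbered 3289 with quantile normalization, 2590 with detected probes, 1081 with spike-in scaling and 3256 with normexp background correction and quantile normalization.

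Of 175 named genes, 155 were called, 148 of these in every fit with 1 array left out. Direction and call held for 111 under every alternative that tested them. Where all 16 arrays had to be above background, only 131 of the 155 were still tested. These differences changed sign. With quantile normalization: Csf3r 0.40, Pdia6 0.015, Ftl1 0.051, Hba-a2 0.45, Hba-a1 0.38, Plin2 0.45, Pemt 0.12, Alb 0.15. With the percentile over detected probes: Csf3r 0.21, Alas2 0.070, Hba-a2 0.15, Hba-a1 0.19, Plin2 0.23. With spike-in scaling: Nkg7 0.030, Csf3r 0.49, Stab1 0.22, Alas2 0.36, Hba-a2 0.43, Hba-a1 0.47, Amy2a5 0.14, Cfd 0.092, Plin2 0.52, Pemt 0.22, Alb 0.057. With normexp and quantile: Csf3r 0.34, Pdia6 0.010, Ftl1 0.068, Alas2 0.041, Hba-a2 0.43, Hba-a1 0.41, Cfd 0.55, Plin2 0.42, Pemt 0.068, Alb 0.13. With probes averaged per gene: Nkg7 0.69. With the slide as a fixed block: Msln -0.086. Without replicate 4 of both A/J groups: Csf3r 0.0032, Msln -0.41, Plin2 0.036. Leaving out single arrays turned the sign of 6 uncalled differences, with ranges of -1.88 to 0.25 for Cfd, -0.059 to 0.38 for Cd36, -0.031 to 0.30 for Apoa4, -0.14 to 0.92 for Msln, -0.24 to 0.052 for Plin2 and -0.39 to 0.014 for Hba-a1. The cause was not tested. Signal over background limits Gpnmb, Ccl3, Ccl7, Cybb, Atp6v0d2, Slc7a11 and Moxd1, whose lower groups lay at background.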
